A study of Mus musculus with 8 samples.

Results

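The Wnt genes described here were the 53 genes of the pathway that were listed by symbol: 19 Wnt ligands, 12 receptors, 6 intracellular and nuclear transducers, 5 secreted antagonists, 7 genes of the R-spondin axis and 4 feedback targets. All 53 were found once each among the 33971 genes of the table. After genes with few reads were removed, 50 of the 53 were among the 19367 genes tested. The exceptions were the ligands Wnt2, Wnt8a and Wnt10b, whose highest counts in any brain were 7, 2 and 7 reads.

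The brains came from wild-type (WT) mouse embryos at embryonic day E14.5. The mothers were kept from the day of mating on normal chow (ND) or on chow lacking choline (CDD), and no other agent or allele was named for either group. The sources differ on the start of the diet, which one of them places before mating. RNA with poly-A tails was sequenced from 4 CDD and 4 ND whole brains. The number of mothers and litters behind the brains is not given in the sources used here, so p-values measure the spread between these brains. The comparison asks which genes differ in the fetal brain when the maternal supply of choline is low.

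Wnt proteins are secreted lipid-modified ligands that bind Frizzled receptors on the cell surface. In the canonical branch they also engage the co-receptors LRP5 and LRP6, β-catenin then escapes degradation, and it acts in the nucleus with transcription factors of the TCF/LEF family. In the fetal brain the pathway is known for patterning the dorsal midline, the thalamus and the midbrain, for keeping progenitors in division, and, through the ligands WNT7A and WNT7B, for the growth of brain vessels.

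Each library held between 31770217 and 43121170 counts on genes. Neural progenitor markers summed to between 1252 and 1545 CPM (counts scaled to library size) and neuron markers to between 5600 and 6265 CPM, and all 7 markers of each list were tested. No marker of the 13 cell type lists was at 0 in all brains, although Tyr, Cryaa and Myog had at most 3 reads in any brain. CDD replicate 2 stood apart in 12 Hox genes of the caudal hindbrain and spinal cord, which summed to 119.9 CPM there, to 2.84 CPM in CDD replicate 1 and to at most 0.694 CPM in the other 6 brains. CDD replicate 4 held the highest level of 15 of the 50 Wnt genes, and of 21.7% of all genes tested.

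Expression levels differed more between the Wnt genes than between the diets. On the scale of the authors' FPKM (fragments per kilobase of gene length, scaled to library size), which allows genes of unequal length to be compared, Ctnnb1, the gene of β-catenin, was far above the rest with a mean of 178 FPKM over the 8 brains. It was followed by Wnt7b at 29.4 FPKM, the antagonist Sfrp1 at 27.6 FPKM, Tcf7l2 at 25.0 FPKM and the receptor Fzd1 at 23.4 FPKM. In all, 12 of the 53 genes had a mean of at least 10 FPKM, 26 lay between 1 and 10 FPKM, and 15 lay under 1 FPKM. Ligands made up 9 of these 15 weakly detected genes. The medians were 1.23 FPKM for the ligands and 6.70 FPKM for the receptors.

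**Figure D1:**
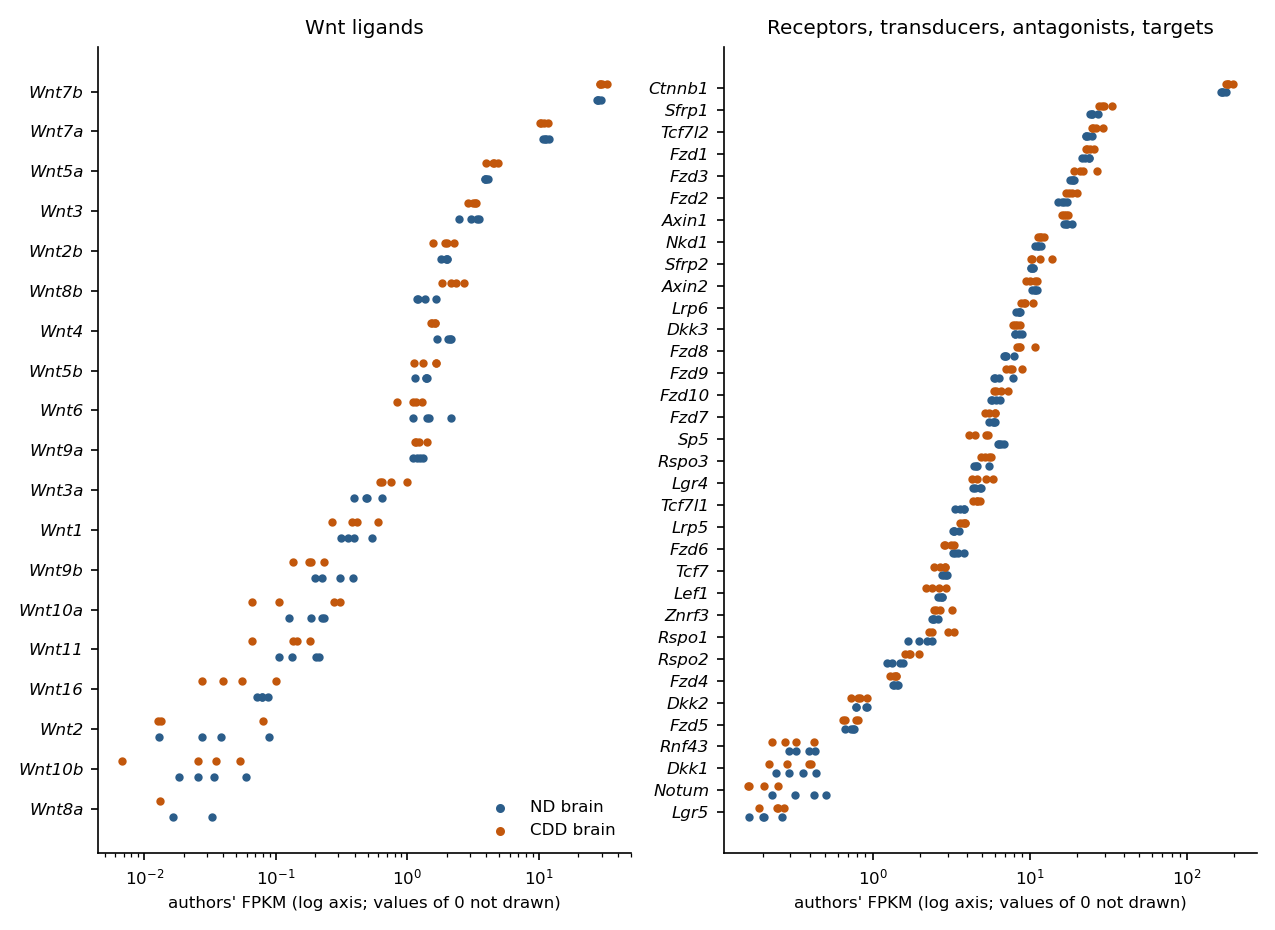
Authors' FPKM (log axis) of the 53 Wnt genes in each brain, with 1 point per brain, orange for CDD and blue for ND, and genes ordered by their mean. Wnt7b leads the ligands at 29.4 FPKM and Ctnnb1 the other genes at 178 FPKM, and the colours of most genes lie on top of each other.

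Between the diets, 8 of the 50 tested Wnt genes (16.0%) passed an adjusted p of 0.05 in edgeR's quasi-likelihood test, where 8.83% of all genes tested did. The 6 that were higher in CDD (12.0%, against 4.24% of all genes) were the ligand Wnt8b, the receptor Fzd8, the co-receptor Lrp6, the TCF factors Tcf7l1 and Tcf7l2, and the antagonist Sfrp1. The 2 that were lower (4.00%, against 4.59% of all genes) were the ligand Wnt4 and the target Sp5. Of the 8, Wnt8b, Tcf7l1 and Sp5 passed again with any 1 of the 8 brains left out, and the other 5 lost the call in at least 3 of the 8 fits. Without CDD replicate 2, whose Hox genes stood apart, all 8 passed again, and 8 genes were higher and 2 lower in all.

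The median log2 fold change (CDD over ND) of the 50 Wnt genes was 0.06, beside -0.0038 for all genes tested. Of the 50, 28 lay above 0 and 22 below, with a range from -0.91 for Notum to 0.73 for Wnt8b. An unadjusted p under 0.05 was reached by 22 Wnt genes (44.0%), 16 of them higher and 6 lower in CDD, where 23.9% of all genes reached it. In 10 Wnt genes (20.0%) the 4 CDD brains did not overlap the 4 ND brains, beside 15.0% of all genes. CDD lay above ND in 8 of these (7.65% of all genes did so) and below in 2 (7.39% of all genes). The typical SD within a diet was 0.132 on the log2 scale for the Wnt genes and 0.122 for all genes. The brains are bulk samples, so fewer cells of a type and less RNA per cell cannot be told apart in any of these differences.

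**Figure D2:**
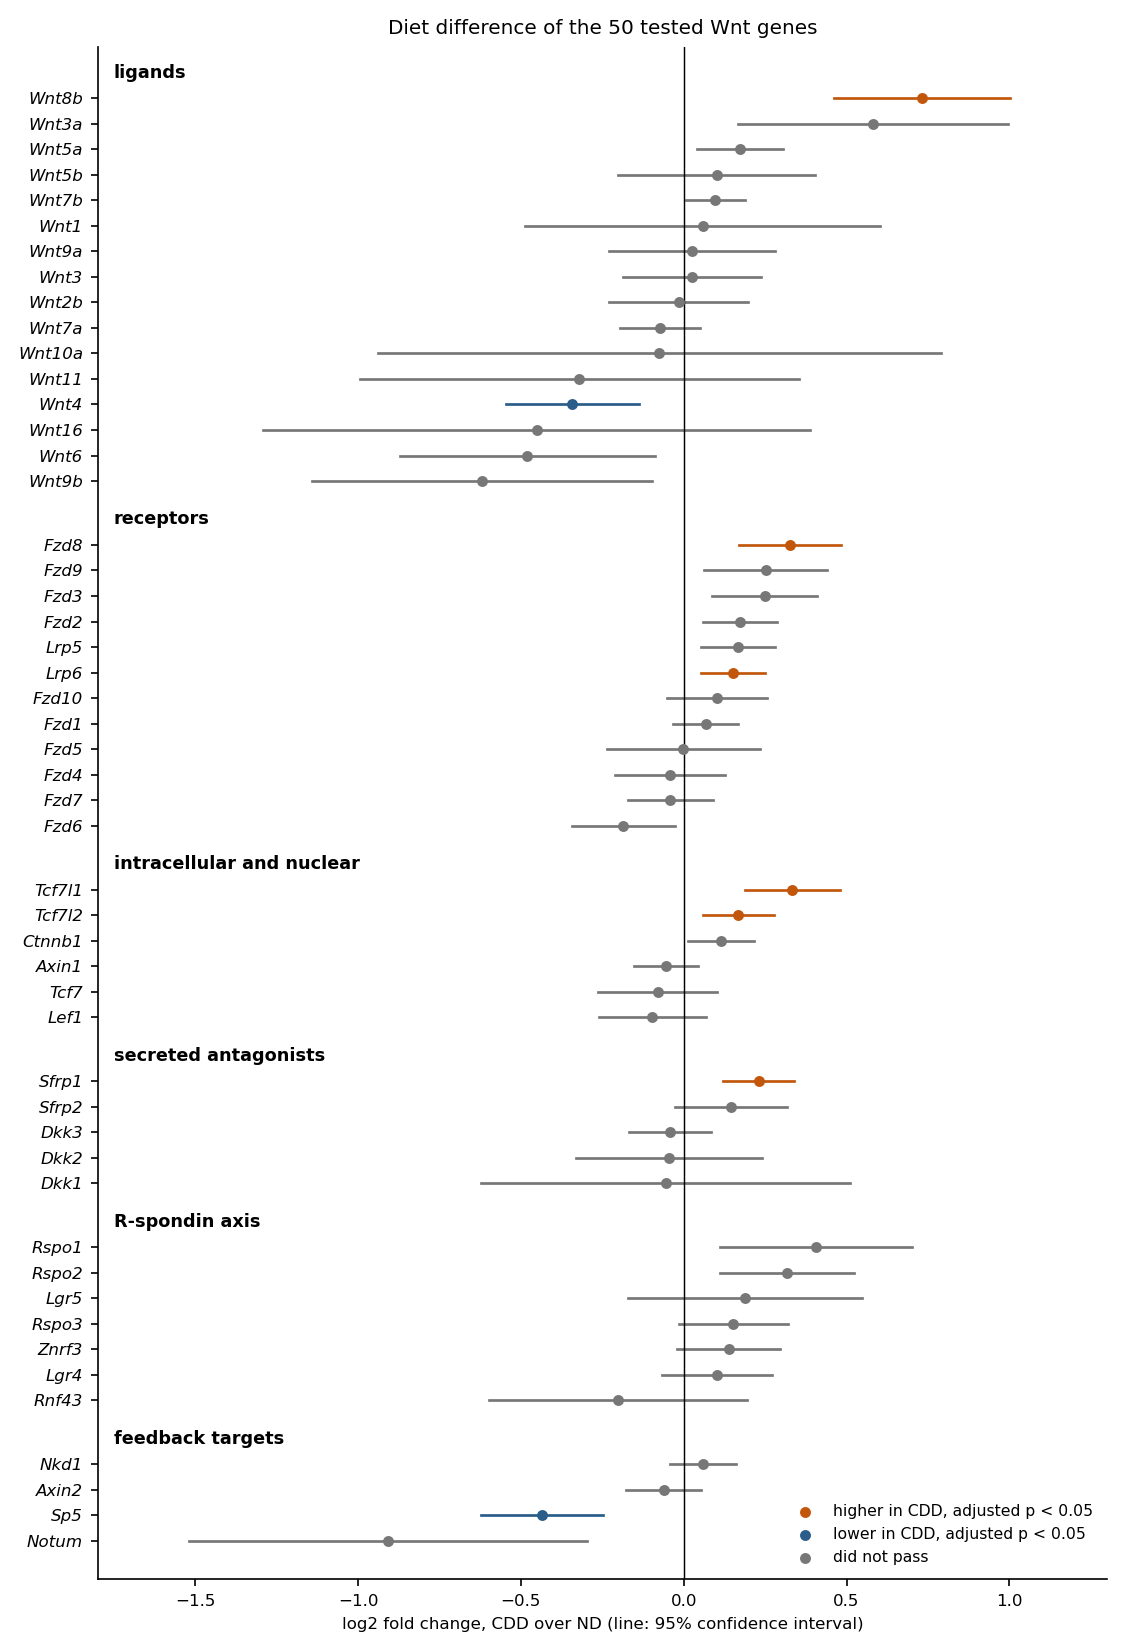
Log2 fold change (CDD over ND) of the 50 tested Wnt genes by role, with points for the estimate and lines for the 95% confidence interval from edgeR's quasi-likelihood test. The 6 orange genes passed as higher in CDD and the 2 blue genes as lower, and the widest intervals belong to weakly detected genes such as Wnt10a and Wnt16.

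**Figure D3:**
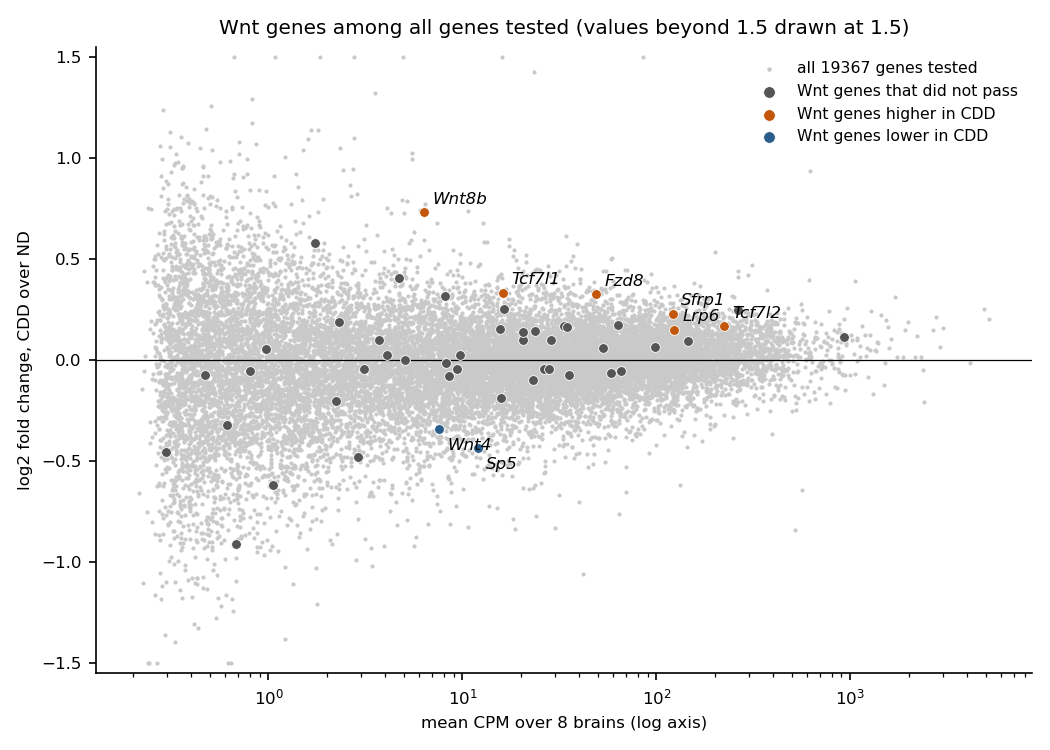
Log2 fold change (CDD over ND) against mean CPM (log axis) for all 19367 genes tested in grey, with the Wnt genes drawn larger. The 8 named genes passed an adjusted p of 0.05, and Wnt8b at 0.73 lies highest among the Wnt genes.

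Among the 16 ligands tested, 1 was higher in CDD, 1 was lower and 14 did not pass (12.5% called, beside 8.83% of all genes). Their median log2 fold change was 0.00. The ligand with the largest rise was Wnt8b (chr19:44481911-44502712 in the deposited table, whose genome build is not named), a ligand of the dorsal midline of the forebrain and of the hypothalamus. Wnt8b stood at 8.30, 6.46, 7.46 and 9.29 CPM in CDD replicates 1 to 4, and at 4.15, 5.78, 4.83 and 4.20 CPM in ND replicates 1 to 4. The lowest CDD brain was still above the highest ND brain, with ND replicate 2 the closest to the CDD range. The means were 7.88 ± 1.21 CPM in CDD and 4.74 ± 0.759 CPM in ND (SD, n = 4 each). The fold was 1.66, a log2 fold change of 0.73 (SE 0.129, adjusted p = 0.00286 by edgeR's quasi-likelihood test with Benjamini-Hochberg adjustment). With each brain left out in turn it stayed between 0.64 and 0.84.

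Wnt8b is known to be active in and near the cortical hem, the signalling centre at the edge of the cortex. Of 10 hem markers, a list that also holds the Wnt genes Rspo1, Rspo2, Wnt3a and Wnt2b, Lmx1a was higher (log2 fold change 0.42, adjusted p = 0.0180) and Bmp6 was lower (-0.33, adjusted p = 0.0126) in CDD by the same test. The share called was 20.0%, beside 8.83% of all genes. Of the 10, 7 had log2 fold changes above 0 and 3 below, with a median of 0.24. An unadjusted p under 0.05 in edgeR was reached by 5, 4 higher and 1 lower, where 23.9% of all genes reached it. The sum of the 10 markers ranged from 83.3 to 89.4 CPM in CDD and from 79.5 to 87.7 CPM in ND, so the diets overlapped. Bmp7 and Bmp6 had the highest means in that sum (27.3 and 14.8 CPM), and both were below 0 (-0.11 and -0.33). The part of the hem in the Wnt8b difference was not tested.

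Wnt4 (chr4:137004800-137027037), a ligand known from kidney and gonad that the brain also makes, went the other way. It measured 6.43, 6.90, 6.53 and 6.76 CPM in CDD replicates 1 to 4 and 8.89, 7.10, 9.11 and 8.61 CPM in ND replicates 1 to 4. The CDD brains were tightly grouped below all ND brains, and ND replicate 2 lay just above them. This gave a log2 fold change of -0.34 (SE 0.0977, adjusted p = 0.0352). The call was lost when CDD replicate 1, ND replicate 1, ND replicate 3 or ND replicate 4 was left out, with an adjusted p of up to 0.143 by edgeR.

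Wnt7a and Wnt7b, the ligands that act on brain endothelium and the most abundant ligands of these brains, did not pass. Wnt7b read 145, 144, 148 and 161 CPM in CDD replicates 1 to 4 and 136, 146, 139 and 139 CPM in ND replicates 1 to 4. The groups overlapped through ND replicate 2, and the log2 fold change was 0.10 with a 95% confidence interval from 0.01 to 0.19 (adjusted p = 0.177, edgeR). Wnt7a read 33.6, 32.3, 34.8 and 37.0 CPM in CDD and 35.7, 38.2, 36.6 and 34.3 CPM in ND, in the same order. Its groups overlapped as well, with CDD replicates 3 and 4 inside the ND range, and the log2 fold change was -0.07 (interval from -0.20 to 0.05, adjusted p = 0.495). Wnt7b made up 50.5 ± 1.11% of the summed ligand FPKM in CDD and 49.0 ± 0.380% in ND, and Wnt7a 17.9 ± 0.574% and 19.6 ± 0.544% (SD, n = 4). Wnt8b held 3.73 ± 0.423% of the ligand sum in CDD and 2.33 ± 0.312% in ND. The ligand sum itself was 60.3 ± 2.80 FPKM in CDD and 57.9 ± 1.51 FPKM in ND, and its ranges overlapped.

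None of the other ligands passed in edgeR, and 4 of them had an unadjusted p under 0.05. Of all 16 ligands tested, 7 reached it (43.8%, beside 23.9% of all genes), 4 higher and 3 lower in CDD. Over all ligands, DESeq2 and limma-voom each called 1 higher and 1 lower. Over all genes, DESeq2 called 1105 higher and 1046 lower of 33950, and limma-voom 651 and 763 of 19367. Wnt3a, which patterns the hippocampus from the hem, did not pass at a log2 fold change of 0.58 (SE 0.198, adjusted p = 0.0730), and it read from 1.72 to 2.78 CPM in CDD and from 1.10 to 1.78 CPM in ND. Wnt9b at -0.62 (adjusted p = 0.131) and Wnt6 at -0.48 (adjusted p = 0.118) pointed downwards and did not pass either. Wnt5a, the main non-canonical ligand, was at 0.17 (adjusted p = 0.0967). The remaining ligands Wnt1, Wnt2b, Wnt3, Wnt5b, Wnt9a, Wnt10a, Wnt11 and Wnt16 had adjusted p-values between 0.541 and 0.948.

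Several Wnt genes lie in pairs on the chromosome, and the values of neighbours can be set side by side. Wnt3a and Wnt9a are 16.2 kb apart on chromosome 11, with log2 fold changes of 0.58 and 0.03. Wnt9b and Wnt3 are 24.3 kb apart on the same chromosome, with -0.62 and 0.03. Wnt6 and Wnt10a are 6.19 kb apart on chromosome 1, with -0.48 and -0.07. None of these 6 passed in edgeR, and Wnt3a, Wnt6 and Wnt9b had an unadjusted p under 0.05, which 23.9% of all genes reached.

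Among the 12 receptors, 2 were higher in CDD, none was lower and 10 did not pass in edgeR (16.7% called, beside 8.83% of all genes). An unadjusted p under 0.05 was reached by 7 receptors (58.3%, beside 23.9% of all genes), 6 of them higher and 1 lower in CDD. DESeq2 called 5 higher and 0 lower, beside 1105 and 1046 of 33950 genes. The limma-voom counts were 1 and 0, beside 651 and 763 of 19367 genes. The median log2 fold change of the 12 was 0.13, and in 4 of them (33.3%, beside 15.0% of all genes) the diets did not overlap. Fzd8, a Frizzled receptor of the forebrain progenitor zone, rose in CDD. It stood at 51.2, 49.4, 52.2 and 64.2 CPM in CDD replicates 1 to 4 and at 42.1, 47.7, 41.9 and 41.4 CPM in ND replicates 1 to 4. All CDD brains were above all ND brains, with CDD replicate 4 the highest and ND replicate 2 well above the other ND brains. Its log2 fold change was 0.33 (SE 0.0744, adjusted p = 0.0140, edgeR). The call was lost without ND replicate 1, ND replicate 3 or ND replicate 4, with an adjusted p of up to 0.0698.

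Lrp6 (chr6:134423439-134543928), the co-receptor of the canonical branch, was just inside the threshold. Lrp6 measured 127, 122, 128 and 143 CPM in CDD replicates 1 to 4 and 119, 118, 114 and 118 CPM in ND replicates 1 to 4. The groups did not overlap, and the lowest CDD brain was replicate 2. The diets differed by a log2 fold change of 0.15 (SE 0.0468, adjusted p = 0.0496, edgeR), and the call held in only 1 of the 8 fits that left out a brain, the fit without CDD replicate 2. With the other 7 fits its adjusted p reached 0.1998.

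Lrp5, the second co-receptor, was just outside it. Lrp5 read 36.7, 35.3, 37.7 and 37.4 CPM in CDD and 32.5, 34.7, 32.2 and 31.7 CPM in ND, each in replicate order. Again the diets did not overlap, with CDD replicate 2 and ND replicate 2 next to each other. The log2 fold change was 0.17 (SE 0.0546, adjusted p = 0.0636, edgeR), and DESeq2 gave an adjusted p of 0.0292.

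Fzd3, a receptor needed for axon tracts, read 272, 279, 247 and 340.1 CPM in CDD replicates 1 to 4 and 242, 245, 233 and 238 CPM in ND replicates 1 to 4. The diets did not overlap, though CDD replicate 3 was just above ND replicate 2 and CDD replicate 4 was far above all others. This gave a log2 fold change of 0.25 (SE 0.0751), which did not pass in edgeR (adjusted p = 0.0565). It passed without CDD replicate 3 or CDD replicate 4, and in DESeq2 (adjusted p = 0.0133).

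Of the other Frizzled genes, Fzd9 (0.25, adjusted p = 0.0878) and Fzd2 (0.17, adjusted p = 0.0535, and 0.0392 in DESeq2) had positive log2 fold changes, Fzd6 was at -0.19 (adjusted p = 0.133), and Fzd1, Fzd4, Fzd5, Fzd7 and Fzd10 lay between -0.04 and 0.10. The summed FPKM of the 10 Frizzled genes was 98.7 ± 6.34 in CDD and 88.8 ± 3.56 in ND (SD, n = 4), with brains from 94.6 to 108 and from 86.1 to 93.8. Fzd1, Fzd3 and Fzd2 held the largest shares of that sum, 24.4%, 22.4% and 18.6% in CDD and 25.7%, 20.9% and 18.3% in ND. The summed level of the 7 progenitor markers was 1403 to 1545 CPM in CDD and 1252 to 1344 CPM in ND. Of these markers, Pax6, Nes and Vim passed as higher (42.9%, beside 4.24% of all genes). The other 4 did not pass, with Hes1 at 0.23, Hes5 at 0.21, Sox2 at 0.09 and Fabp7 at -0.04. In edgeR 6 of the 7 had an unadjusted p under 0.05, all higher (85.7%, beside 23.9% of all genes). The part of these progenitor values in the differences of the receptors, and of Tcf7l1 and Sfrp1 described next, was not tested.

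Inside the cell, 2 of 6 transducers were higher in CDD (33.3%, beside 4.24% of all genes), both of the TCF family, and 4 did not pass. Tcf7l1 (chr6:72603361-72766237), a TCF that mostly represses its targets, was raised in all CDD brains. Tcf7l1 was at 18.2, 19.0, 17.1 and 18.1 CPM in CDD replicates 1 to 4 and at 14.9, 15.0, 14.3 and 13.1 CPM in ND replicates 1 to 4. A clear gap separated the diets. Its log2 fold change was 0.33 (SE 0.0701, adjusted p = 0.00701, edgeR), with values of 0.29 to 0.36 as each brain was left out.

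Tcf7l2 (chr19:55730252-55922086), the most abundant TCF factor here and a factor of thalamic neurons, was just inside the threshold. It stood at 226, 222.7, 236 and 261 CPM in CDD replicates 1 to 4 and at 203, 223.1, 205 and 210.3 CPM in ND replicates 1 to 4. CDD replicate 2 fell below ND replicate 2, so the diets overlapped. The diets differed by a log2 fold change of 0.17 (SE 0.0519, adjusted p = 0.0499, edgeR), and the call was lost without CDD replicate 3, CDD replicate 4, ND replicate 1, ND replicate 3 or ND replicate 4, with an adjusted p of up to 0.182. Of 5 thalamus markers, Gbx2 passed as higher in CDD (log2 fold change 0.45, adjusted p = 0.0301, edgeR), or 20.0%, beside 4.24% of all genes. The other 4 did not pass, with Lhx9 at 0.12, Slc17a6 at 0.11, Rora at 0.15 and Ntng1 at -0.02. The sum of the 5 was 312 to 334 CPM in CDD and 296 to 303 CPM in ND. The part of the thalamus in the Tcf7l2 value was not tested.

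The other members of the TCF/LEF family had values on the other side of 0. Lef1, an activator, read 21.0, 23.5, 25.8 and 19.0 CPM in CDD and 23.6, 24.5, 23.3 and 24.3 CPM in ND, in replicate order. The CDD brains spread to both sides of the ND brains, and the log2 fold change was -0.10 (SE 0.0783, adjusted p = 0.497, edgeR). Tcf7 was at -0.08 (adjusted p = 0.637). By FPKM, Tcf7l2 held 72.8 ± 2.09% of the family's sum in CDD and 71.8 ± 0.696% in ND, Tcf7l1 12.7 ± 0.926% and 11.1 ± 0.675%, Tcf7 7.53 ± 0.616% and 8.81 ± 0.417%, and Lef1 6.997 ± 1.05% and 8.27 ± 0.169% (SD, n = 4).

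Ctnnb1 encodes β-catenin, whose activity is set mainly by protein stability. The gene measured 956, 928, 959 and 1016 CPM in CDD replicates 1 to 4 and 879, 929, 865 and 895 CPM in ND replicates 1 to 4. ND replicate 2 lay level with CDD replicate 2, so the diets overlapped. The log2 fold change was 0.11 (SE 0.0485, adjusted p = 0.155, edgeR), while DESeq2 gave an adjusted p of 0.0451. Axin1, the scaffold of the complex that degrades β-catenin, was at -0.05 (adjusted p = 0.527).

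Of the 5 secreted antagonists, Sfrp1 was higher in CDD and the other 4 did not pass (20.0% called, beside 8.83% of all genes). Sfrp1 (chr8:23901518-23939648) binds Wnt proteins outside the cell and marks ventricular zone progenitors. It read 122, 126, 129.8 and 146 CPM in CDD replicates 1 to 4 and 110.3, 119, 107 and 110.0 CPM in ND replicates 1 to 4. The diets did not overlap, with CDD replicate 4 the highest and ND replicate 2 the closest to CDD. This gave a log2 fold change of 0.23 (SE 0.0521, adjusted p = 0.0113, edgeR). Without ND replicate 1, ND replicate 3 or ND replicate 4 the call was lost, with an adjusted p of up to 0.0719. Sfrp2, of the same family, was at 0.15 (adjusted p = 0.296), and the Dickkopf genes Dkk1, Dkk2 and Dkk3, whose first 2 products block LRP5 and LRP6, lay between -0.06 and -0.04 with adjusted p-values from 0.736 to 0.931.

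None of the 7 genes of the R-spondin axis, which strengthens Wnt signals by keeping Frizzled receptors on the surface, passed in edgeR. An unadjusted p under 0.05 was reached by 2 of them (28.6%, beside 23.9% of all genes). DESeq2 called 1 and limma-voom 0, beside 2151 of 33950 and 1414 of 19367 genes over the whole table. Of the 7, 6 had log2 fold changes above 0, and the median was 0.15. The R-spondin Rspo2 read 8.79, 8.26, 8.87 and 10.1 CPM in CDD replicates 1 to 4 and 6.38, 8.03, 6.82 and 7.65 CPM in ND replicates 1 to 4. Each CDD brain was above each ND brain, by a small margin between CDD replicate 2 and ND replicate 2. Its log2 fold change of 0.32 (SE 0.0989) had an adjusted p of 0.0513 in edgeR, and of 0.0326 in DESeq2. Rspo1 was at 0.41 (adjusted p = 0.0775) and Rspo3 at 0.15 (adjusted p = 0.256). Summed over the R-spondins, the FPKM was 9.82 ± 0.697 in CDD and 8.24 ± 0.881 in ND (SD, n = 4), with brains from 8.92 to 10.5 and from 7.42 to 9.46. The R-spondin receptors Lgr4 and Lgr5 were at 0.10 and 0.19, and the ubiquitin ligases Znrf3 and Rnf43, which remove Frizzled receptors, at 0.14 and -0.20, with adjusted p-values from 0.281 to 0.566.

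Of the 4 feedback targets, which canonical signals switch on and which damp the pathway in turn, 1 was lower in CDD and 3 did not pass. The share called was 25.0%, beside 8.83% of all genes. Sp5 (chr2:70305267-70308073), a zinc finger repressor, fell in CDD. Sp5 stood at 8.72, 11.2, 11.4 and 9.35 CPM in CDD replicates 1 to 4 and at 13.4, 13.2, 14.54 and 13.9 CPM in ND replicates 1 to 4. All CDD brains lay below all ND brains, with the ND brains close together. The means were 10.2 ± 1.32 CPM and 13.8 ± 0.597 CPM (SD, n = 4). Its log2 fold change was -0.44 (SE 0.0894, adjusted p = 0.00614, edgeR), between -0.49 and -0.37 as each brain was left out.

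Axin2, the most widely used readout of canonical signalling, did not pass. Axin2 was at 62.1, 52.0, 59.8 and 54.7 CPM in CDD replicates 1 to 4 and at 60.2, 61.6, 59.8 and 57.1 CPM in ND replicates 1 to 4. CDD replicate 1 was the highest of the 8 brains and CDD replicate 2 the lowest. Its log2 fold change was -0.06 with a 95% confidence interval from -0.18 to 0.05 (adjusted p = 0.542, edgeR). Nkd1 was at 0.06 (adjusted p = 0.493). Notum, whose product strips the lipid from Wnt proteins, had a log2 fold change of -0.91 (SE 0.292) that did not pass (adjusted p = 0.0586), on 190 reads over all brains. Its brains ranged from 0.392 to 0.604 CPM in CDD and from 0.556 to 1.22 CPM in ND.

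**Figure D4:**
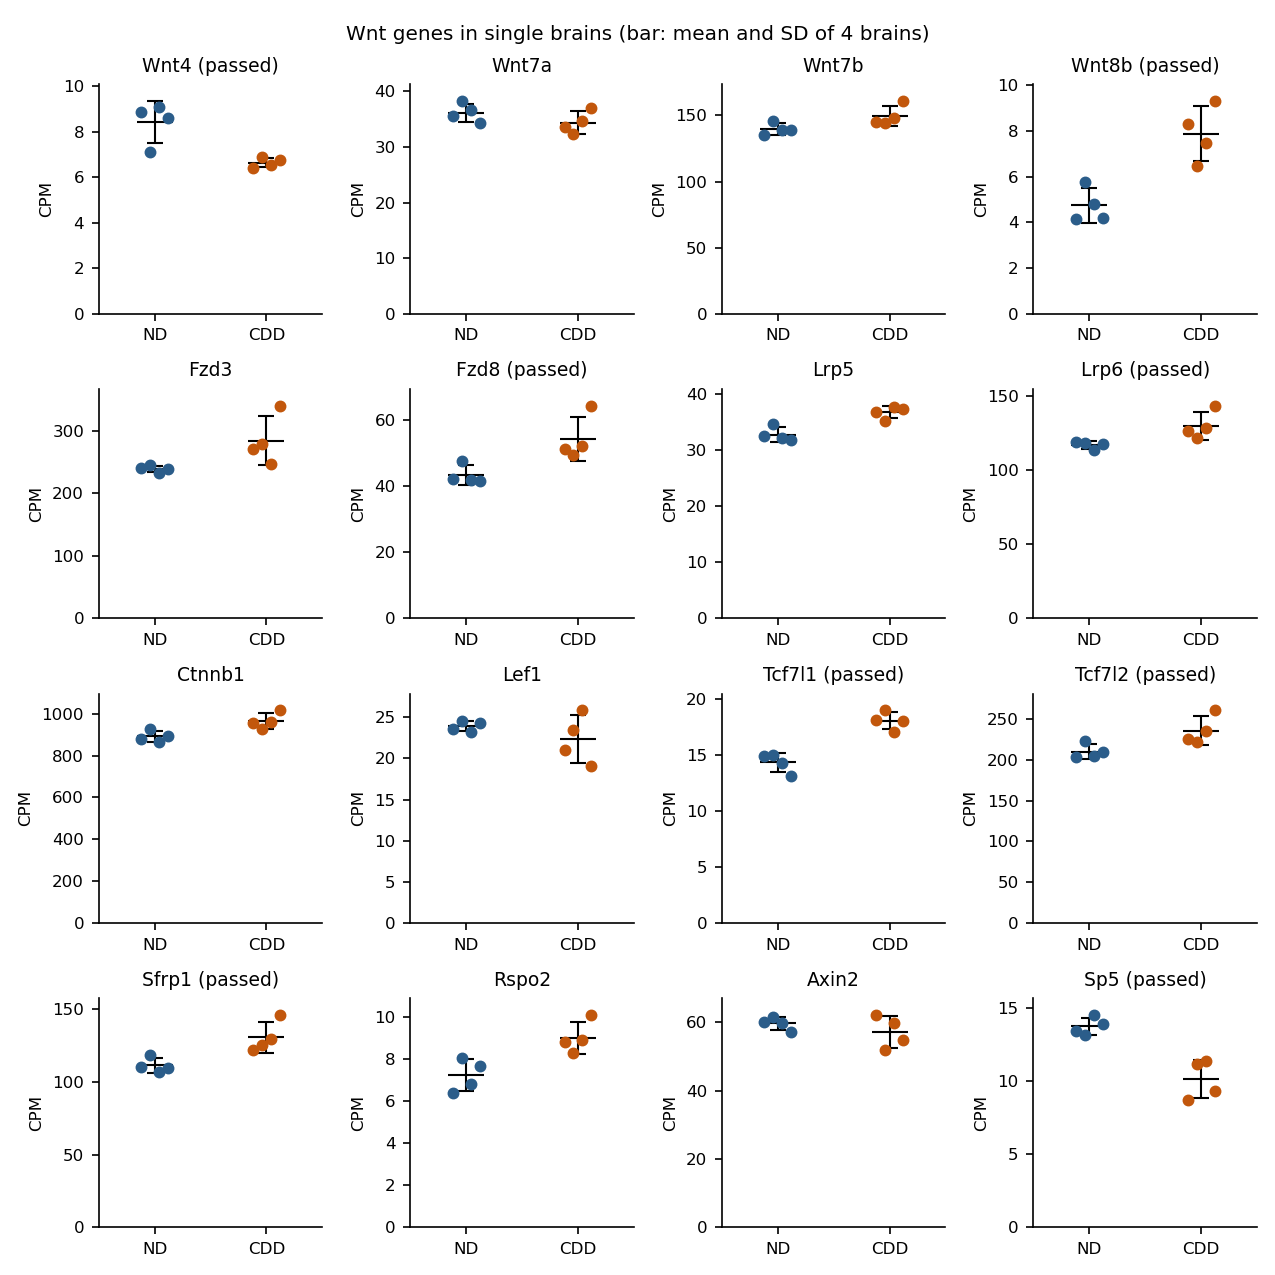
CPM of 16 Wnt genes in each of the 4 ND (blue) and 4 CDD (orange) brains, with the mean and SD as bars and each axis starting at 0. Genes that passed an adjusted p of 0.05 carry the word passed, and Wnt8b, Tcf7l1 and Sp5 show gaps between the diets while Axin2, Lef1 and Wnt7a overlap.

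TCF factors bind short motifs in the promoters of targets, so the 250 bases before each start site in RefSeq's promoter table (GRCm38.p6) were searched on both strands for matches of CTTTGAA, of CTTTGAT, of CTTTGTA and of CTTTGTT. The table matched 35 of the 53 Wnt genes at 45 start sites. Of the 8 genes that passed, Fzd8, Lrp6 and Sfrp1 had no window there and were not searched. At least 1 match was present in 7 of the 35 genes (20.0%), beside 16.8% of the 27025 genes of the table. Counted by start site, this was 15.6% of the 45 and 14.8% of all 32851 sites. Sp5, which passed, holds 2 matches, which 1.43% of all start sites equal or exceed, and Axin2, which did not pass, and Wnt8b hold none. Dkk1, which did not pass (log2 fold change -0.06, adjusted p = 0.931), also holds 2, at -117 and -98, and Tcf7l2, which passed as higher, holds 1 at 1 of its 2 start sites. Their windows are shown because Sp5 and Axin2 are both feedback targets, of which 1 passed, and Wnt8b had the largest fold of the genes that passed. Capitals mark the matches, at -222 and -104 from the start in Sp5. The windows are chr2:70474673-70474922 for Sp5, chr11:108920099-108920348 for Axin2 and chr19:44493222-44493471 for Wnt8b, all on the plus strand. These are GRCm38.p6 positions. They do not match the gene positions of the deposited table given above, so the window and gene positions cannot be set side by side.
Sp5: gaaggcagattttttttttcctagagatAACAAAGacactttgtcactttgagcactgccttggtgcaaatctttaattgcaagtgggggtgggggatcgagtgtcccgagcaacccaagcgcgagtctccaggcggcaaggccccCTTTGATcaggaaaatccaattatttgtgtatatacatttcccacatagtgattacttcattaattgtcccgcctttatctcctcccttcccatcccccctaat
Axin2: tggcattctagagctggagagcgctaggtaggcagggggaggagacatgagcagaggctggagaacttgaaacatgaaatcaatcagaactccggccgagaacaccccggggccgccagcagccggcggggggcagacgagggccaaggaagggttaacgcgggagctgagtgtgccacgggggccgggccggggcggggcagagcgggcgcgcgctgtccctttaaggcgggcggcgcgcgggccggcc
Wnt8b: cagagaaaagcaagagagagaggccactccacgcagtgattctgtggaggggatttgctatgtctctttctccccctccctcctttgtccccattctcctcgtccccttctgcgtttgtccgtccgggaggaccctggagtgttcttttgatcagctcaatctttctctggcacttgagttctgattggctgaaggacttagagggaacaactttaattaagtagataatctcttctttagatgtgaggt
A match is a description of letters and not a binding site, and the lack of one says only that these letters are missing from this window. The windows of Tcf7l1 and Wnt4, which passed, hold no match either.

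Beyond the 53 genes, 62 further genes of the pathway were listed, of which 59 were tested. Of these, 3 were higher and 2 were lower in CDD (8.47%, beside 8.83% of all genes), the median log2 fold change was 0.03, and in 11 (18.6%, beside 15.0% of all genes) the diets did not overlap. Ccnd1, which encodes cyclin D1 and drives entry into the cell cycle, had the smallest p. It read 66.3, 70.6, 62.3 and 72.8 CPM in CDD replicates 1 to 4 and 48.9, 51.8, 46.9 and 44.4 CPM in ND replicates 1 to 4. A wide gap separated the diets, and the log2 fold change was 0.50 (SE 0.0573, adjusted p = 0.000403, edgeR).

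The other pathway genes that passed were Apcdd1 (0.17, adjusted p = 0.0135), a membrane inhibitor of Wnt receptors, Tnks2 (0.20, adjusted p = 0.0275), a tankyrase that marks axin for degradation, Nkd2 (-0.34, adjusted p = 0.0121), a Naked cuticle inhibitor, and Prickle1 (-0.27, adjusted p = 0.0341), of planar polarity. Apcdd1 lost its call in 3 of the 8 fits with a brain left out, Nkd2 in 1, Tnks2 in 5 and Prickle1 in 4, while Ccnd1 kept it in all 8. Apcdd1, Nkd2 and Ccnd1 belong to the 8 other targets, of which 2 rose, 1 fell and 5 did not pass. The share called was 37.5%, beside 8.83% of all genes. None of the 2 genes of ligand secretion or the 10 nuclear cofactors passed in edgeR. An unadjusted p under 0.05 was reached by 1 and 2 of them, DESeq2 called 1 lower in each list, and limma-voom 0 and 1. The ligand secretion gene Porcn, the acyltransferase that adds the lipid to Wnt proteins, was at -0.28 (adjusted p = 0.135). The Wnt7 co-receptor genes of brain endothelium, Adgra2 and Reck, were at -0.17 (adjusted p = 0.0711) and 0.14 (adjusted p = 0.203). Endothelial markers summed to 241 to 256 CPM in CDD and 255 to 269 CPM in ND. Of the 6, Cldn5 was lower (16.7%, beside 4.59% of all genes). The part of these markers in the Adgra2 value was not tested.

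**Figure D5:**
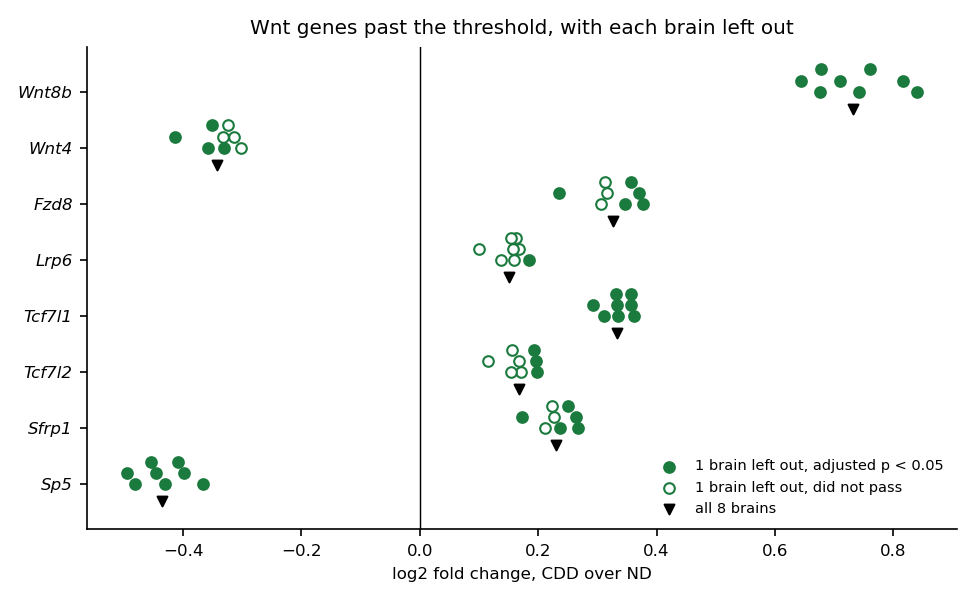
Log2 fold change (CDD over ND) of the 8 Wnt genes that passed, with all 8 brains (triangles) and with each brain left out (circles, set at 3 heights for clarity and filled where the adjusted p stayed under 0.05). All circles of Wnt8b, Tcf7l1 and Sp5 are filled, and only 1 of 8 is filled for Lrp6.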

How the data were processed

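Brains (E14.5, WT) of the CDD (n = 4) and ND (n = 4) groups were grouped by the diet in their labels. The authors deposited raw counts per gene and FPKM values made from normalised counts and gene length. The submitters' processing notes name HISAT2 2.0.5, featureCounts 1.5.0-p3 and DESeq2 1.20.0. The genome build, the annotation and the use of strand are not given in the sources used here. The deposited columns of fold changes and p-values, and shorter tables of the authors' chosen genes, were not used.

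Counts were filtered with filterByExpr, scaled by TMM and tested with the robust quasi-likelihood test of edgeR 4.0.16 in R 4.3.3, with diet as the single term, over 19367 genes. A gene was called at a Benjamini-Hochberg adjusted p under 0.05. The SE is the log2 fold change divided by the square root of F. CPM values are scaled by TMM, and the 95% interval comes from the same fit. The test was tried on simulated counts. Totals were 31770217 to 43121170 counts per brain.

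The Wnt genes and gene lists were chosen with earlier results of these data known. Brains are given one by one for Wnt genes that passed, for those whose diets did not overlap at a mean of at least 1 CPM, and for Ctnnb1, Axin2, Lef1, Wnt7a and Wnt7b. Notum and Wnt3a were given their range. Further pathway genes were named when they passed, and Porcn, Adgra2 and Reck were chosen after their values were seen. Marker lists without a value in the text above gave these sums, in CPM for CDD and ND. Choroid plexus was at 232 to 546 and 328 to 365, with Otx2 higher. Meningeal fibroblasts were at 448 to 498 and 475 to 568, with Lum higher and Col1a1 and Col1a2 lower. Microglia were at 44.9 to 49.4 and 48.7 to 57.0, and erythroid cells at 436 to 755 and 398 to 1336, with Hbb-y and Hba-x higher. The result of 1 further marker list is not reported here. Surface ectoderm was at 2.26 to 3.17 and 2.90 to 3.60, and skeletal muscle at 5.01 to 5.85 and 5.21 to 5.93. Snap25 was the neuron marker that fell. Alternatives were DESeq2 1.42.0, RLE and upper-quartile scaling, limma-voom (limma 3.58.1), no filter, 10 or more counts in all brains, a block for the replicate number, each brain left out, an adjusted p under 0.01, and limma on log2(FPKM + 1).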

Additional observations from a re-analysis of the deposited data

Results flagged for a closer look

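In 4 ligands and receptors, 1 ND brain stood apart from the other 3 ND brains. Of 100 groups of 4 brains examined for such a gap, 5 would be found by chance, and 4 were. Wnt2b in ND replicate 1 was at 2.95 log2 CPM (7.66 CPM, beside 8.38 to 8.53 CPM). Wnt5a in ND replicate 2 was at 5.02 log2 CPM (32.4 CPM, beside 30.8 to 31.0 CPM). Wnt5b in ND replicate 3 was at 1.64 log2 CPM (3.06 CPM, beside 3.71 to 3.74 CPM). Fzd8 in ND replicate 2 was at 5.58 log2 CPM (47.7 CPM, beside 41.4 to 42.1 CPM), and of these 4 genes Fzd8 is the one that passed between the diets.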

How the results depend on the processing

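No call of the 8 Wnt genes that passed changed direction in 128 values under the alternatives, of which 93 kept the call and 35 lost it. Wnt8b, Tcf7l1 and Sp5 kept it in every alternative run at the 0.05 threshold. Beside 6 Wnt genes higher and 2 lower in CDD, DESeq2 gave 11 higher, no filter on low counts gave 12 and 4, and the authors' FPKM and an adjusted p under 0.01 each gave 2 and 1. With 1 brain left out, 2 to 9 were higher, with 2 in each fit without ND replicate 1, ND replicate 3 or ND replicate 4, and 1 to 3 were lower. Over all genes, 1710 calls became 2151 with DESeq2 and 2374 without the filter. They became 477 at 0.01, 390 with FPKM and 471 to 2495 with 1 brain left out. Of the further pathway genes, 3 higher and 2 lower became 5 and 5 with DESeq2, 8 and 6 without the filter, 1 and 0 at 0.01 and with FPKM, and 1 to 6 and 0 to 7 with a brain left out. The cause of these shifts was not tested. Lrp6 lost its call with RLE (0.0544), upper-quartile scaling (0.0565), voom (0.0803), at least 10 counts (0.0592) and FPKM (0.147), Tcf7l2 with RLE (0.0548), upper-quartile scaling (0.0553), voom (0.0627) and FPKM (0.119), and Wnt4 (0.0887), Fzd8 (0.0762) and Sfrp1 (0.0708) with FPKM, all adjusted p-values. Fzd8 and Sfrp1 kept a positive log2 fold change in each alternative. Same-numbered brains had correlations of 0.105, -0.133, 0.117 and 0.232 once the mean of each diet was removed. CDD replicates 1, 3 and 4 each correlated best with the same-numbered ND brain, and CDD replicate 2 with ND replicate 4 (0.214). Whether the number pairs the brains was not tested. The replicate block gave 1812 calls, 6 and 2 Wnt genes, with Fzd3 (adjusted p = 0.0181) in place of Lrp6 (0.0502), and 3 and 4 further pathway genes. Signs turned only in Wnt genes that did not pass. With a brain left out, log2 fold changes ranged from -0.16 to 0.23 in Wnt1, -0.089 to 0.072 in Wnt2b, -0.067 to 0.089 in Wnt3, -0.044 to 0.069 in Wnt9a, -0.41 to 0.24 in Wnt10a, -0.049 to 0.049 in Fzd5, -0.18 to 0.11 in Dkk1 and -0.10 to 0.0097 in Dkk2, and Fzd5 was also at 0.0037 with DESeq2, 0.0020 with RLE and 2.61e-05 with FPKM. Wnt10a and Wnt16, with 129 and 84 reads over all brains, had wide intervals, and the part of depth in them was not tested.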

Other observations

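The list of further co-receptors and planar polarity genes holds 13 genes, some of the branch of Wnt signalling that does not use β-catenin and some, such as Adgra2 and Reck, of the branch that does. Prickle1 passed as lower in CDD and 12 did not pass (7.69% called, beside 8.83% of all genes), 8 had an unadjusted p under 0.05 (61.5%, beside 23.9% of all genes), and the diets did not overlap in 4 (30.8%, beside 15.0% of all genes). DESeq2 called 2 higher and 2 lower, beside 1105 and 1046 of 33950 genes. Genes named here were chosen after their values were seen. Celsr1, an atypical cadherin of the polarity complex, was at 0.29 on the log2 scale (CDD over ND, adjusted p = 0.0535, edgeR) and Vangl2, a membrane protein of the same complex, at 0.15 (adjusted p = 0.0553). Vangl2 stood at 216 to 226 CPM in CDD and at 185 to 215 CPM in ND, with no overlap. The Wnt co-receptors Ptk7 and Ryk were at 0.12 (adjusted p = 0.0894) and 0.11 (adjusted p = 0.137). Of the 17 genes of the destruction complex and the cytoplasm, Tnks2 passed as higher and 16 did not pass (5.88% called, beside 8.83% of all genes). Gsk3b, a kinase that marks β-catenin for degradation, was among the 16 at 0.20 (adjusted p = 0.134, edgeR).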
